A study of Mus musculus with 36 samples.

Results

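The comparison described here is that of A537T-TRAMP with A537T prostate at 30 weeks of age, and it asks which miRNAs differ between A537T prostates with and without the TRAMP transgene. It rests on 6 of the 36 small RNA libraries of the series, the 3 A537T-TRAMP libraries numbered 13, 14 and 15 and the 3 A537T libraries numbered 25, 26 and 27, which were chosen by line, transgene and age alone. All 6 came from the ventral and lateral prostate lobes of male mice on a C56NL/6N background that were homozygous for the A537T change in ELAC2, an alanine to threonine exchange made by CRISPR-Cas9 and carried in the whole body. The A537T-TRAMP mice were also heterozygous for TRAMP (TRAMP +/-), a transgene in which the probasin (Pb) promoter drives both SV40 T antigens, large and small, in epithelial cells of the prostate. The wider study compared WT mice, mice in which Pb-Cre deletes an exon of Elac2 in the prostate alone (KO) and A537T mice, with and without TRAMP, at 10 and 30 weeks, in 12 groups of 3 libraries. The 6 libraries held 9090165 to 21870210 miRNA reads and 910 to 1055 miRNAs with a read. The labels number the replicates without naming the mice, and the study's text describes them as biological replicates from 3 mice of each line and age.

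MicroRNAs are short RNAs cut from hairpin precursors that guide Argonaute proteins to messenger RNAs, and bases 2 to 8 of the mature strand, the seed, set most of the pairing. Large T antigen binds the retinoblastoma protein and p53. Retinoblastoma protein normally holds back the E2F transcription factors, which turn on genes of DNA replication and several miRNA clusters, and p53 is an activator of the miR-34 genes. TRAMP mice develop hyperplasia and then adenocarcinoma of the prostate, an organ in which luminal and basal epithelium are surrounded by smooth muscle, fibroblasts, vessels and white blood cells.

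With TRAMP, 44 miRNAs rose and 16 fell among 495 tested (limma, adjusted p under 0.05), which is 8.89% and 3.23% of those tested and 12.1% in both directions together. The rises included clusters of miRNAs linked to cell division, miR-106b/93/25, miR-17-92 and miR-15b/16, and miR-142a of white blood cells. The falls included miR-672-5p, miR-365-3p, miR-664-3p and miR-205 of basal epithelium, and also miR-133 and miR-145a of muscle, whose calls were lost on leaving out single libraries. Other markers of these cell types did not all follow. miR-203-3p, also listed for basal epithelium, rose. miR-1a-3p and miR-206-3p of muscle and miR-150-5p and miR-223-3p of white blood cells did not pass the test. Expression was taken as reads per 1000000 miRNA reads (RPM), miRNAs with a mean of at least 1 RPM were tested, and log2 fold changes are on the scale of log2(RPM + 1), which understates the change of low miRNAs. The median log2 fold change over all miRNAs tested was 0.0013.

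Sequences are shown because the clusters linked to cell division have members that share 4 seeds. Many other miRNAs that rose carry seeds of their own, and 8.89% of all miRNAs tested rose. The sequences are mature miRNAs from RefSeq (GRCm38.p6), 5′ to 3′, with bases 2 to 8 in capitals. Of the 495 miRNAs tested, 425 matched an entry by name, as did 52 of the 60 that passed the threshold.

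The AAAGUGC seed was carried by 6 tested miRNAs, of which 4 rose.
miR-106b-5p: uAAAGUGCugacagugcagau
miR-93-5p: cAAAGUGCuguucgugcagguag
miR-17-5p: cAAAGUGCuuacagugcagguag
miR-20a-5p: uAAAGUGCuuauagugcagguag

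miR-18a-5p of the same Mir17 cluster has a related seed of its own and rose as well.
miR-18a-5p: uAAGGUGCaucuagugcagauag

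The AUUGCAC seed was carried by 5 tested miRNAs, of which miR-25-3p and miR-32-5p rose and miR-92a-3p did not pass the threshold. The others, miR-363-3p and miR-92b-3p, had negative log2 fold changes and did not pass either.
miR-25-3p: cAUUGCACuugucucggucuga
miR-32-5p: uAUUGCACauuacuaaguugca
miR-92a-3p: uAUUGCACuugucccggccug

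The GUGCAAA seed was carried by 2 tested miRNAs, and both rose.
miR-19a-3p: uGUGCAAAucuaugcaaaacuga
miR-19b-3p: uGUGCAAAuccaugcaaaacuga

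The AGCAGCA seed of the miR-15/16 family, whose known targets include cyclins of the G1 phase, was carried by 6 tested miRNAs, of which 4 rose.
miR-15b-5p: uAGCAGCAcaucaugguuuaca
miR-16-5p: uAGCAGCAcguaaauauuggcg
miR-195a-5p: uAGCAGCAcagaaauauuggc
miR-497a-5p: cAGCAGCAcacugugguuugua

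Outside these seeds, miR-142a-3p and miR-203-3p rose and miR-205-5p, miR-365-3p and miR-222-3p fell, among others.
miR-142a-3p: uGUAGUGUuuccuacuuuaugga
miR-203-3p: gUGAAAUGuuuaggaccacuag
miR-205-5p: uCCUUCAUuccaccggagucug
miR-365-3p: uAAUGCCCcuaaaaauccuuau
miR-222-3p: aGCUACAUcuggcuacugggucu

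**Figure D1:**
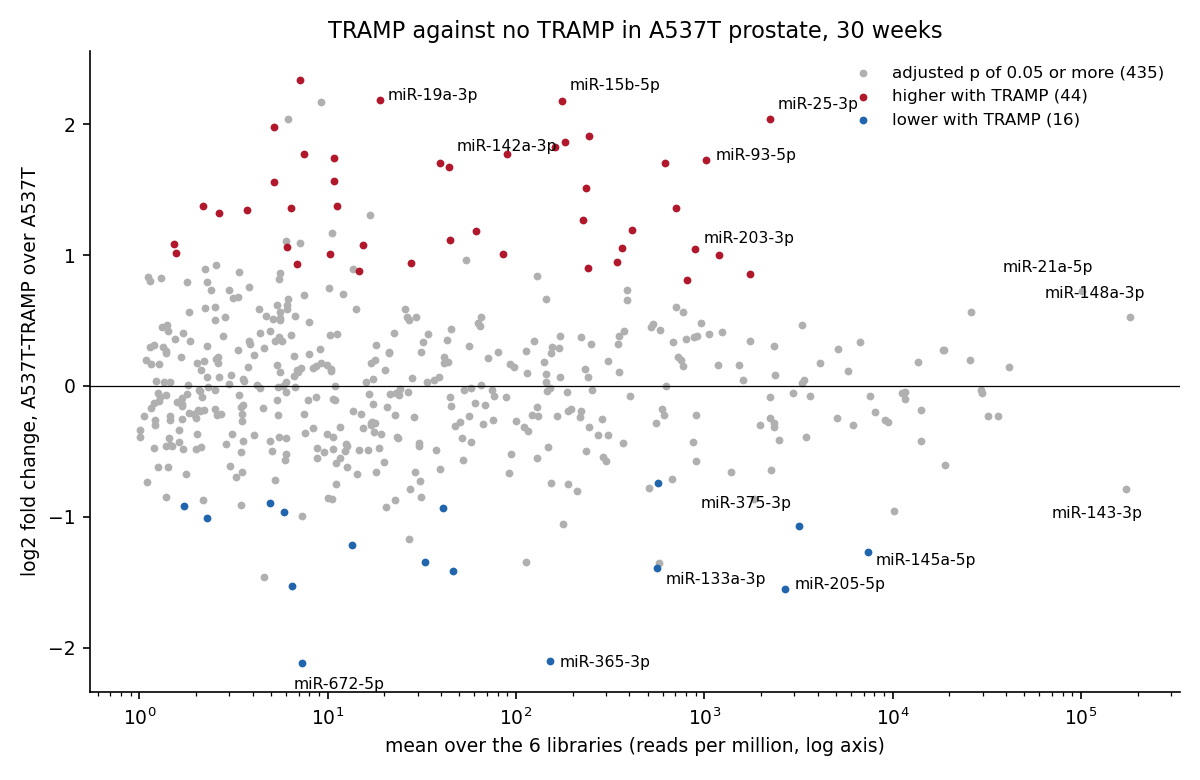
Each point is 1 of the 495 miRNAs tested, with its mean over the 6 libraries on a log axis (RPM) and its log2 fold change of A537T-TRAMP over A537T at 30 weeks. Red points are the 44 that rose, blue points the 16 that fell and grey points the others, and the most abundant miRNAs, miR-148a-3p, miR-143-3p and miR-21a-5p, are among the grey.

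The cluster of miR-106b, miR-93 and miR-25 rose as a whole. It lies on chromosome 5 at 138165332 to 138165807 (GRCm38, minus strand), inside Mcm7 and on its strand, and Mcm7 encodes a subunit of the helicase that opens DNA for replication. The hairpin of Mir106b lies in an intron, and those of Mir93 and Mir25 lie in an intron that a retained-intron transcript keeps as exon. All 6 mature miRNAs of the cluster were tested and all 6 rose, by 1.07 to 2.04 on the log2 scale.

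miR-25-3p, the most abundant of them, stood at 2691, 4703 and 3363 RPM in A537T-TRAMP libraries 13, 14 and 15 and at 872, 820.0 and 854 in A537T libraries 25, 26 and 27. Every A537T-TRAMP library was thus above every A537T library, and the means of 3586 ± 1024 and 849 ± 26.4 (SD, n = 3 each) gave a log2 fold change of 2.04 ± 0.23 (SE, limma adjusted p = 0.00265). For miR-93-5p the values were 1398, 1982 and 1346 with TRAMP and 534, 437 and 442 without it, with a log2 fold change of 1.72 ± 0.22 (limma adjusted p = 0.00336). The groups were again apart, with library 14 the highest for both miRNAs. miR-106b-5p stood at 290.5, 334 and 231 with TRAMP and at 96.7, 82.4 and 56.2 without it, and rose by 1.87 ± 0.26 on the log2 scale (limma adjusted p = 0.00389). Its other arm, miR-106b-3p, was of like abundance and rose by 1.91 ± 0.25 (limma adjusted p = 0.00385). Among the less abundant arms, miR-25-5p and miR-93-3p rose by 1.74 ± 0.24 (limma adjusted p = 0.00389) and 1.07 ± 0.28 (limma adjusted p = 0.0415), and of the 6 mature miRNAs only miR-93-3p lost its call when single libraries were left out, which it did for each of libraries 13, 14, 15, 25 and 27, with limma adjusted p of up to 0.156.

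The promoter of Mcm7 is shown because the 3 hairpins lie on the Mcm7 strand, although these files do not measure the messenger RNA of Mcm7. The window runs from 250 bases before to 50 after a RefSeq start site of Mcm7 (GRCm38, chr5:138171834-138172133, minus strand) and is given 5′ to 3′, with matches to E2F-type motifs in capitals. The letters TTTCCCGC, TTTCGCGC, TTTGCCGC and TTTGGCGC were searched on both strands.
Mcm7: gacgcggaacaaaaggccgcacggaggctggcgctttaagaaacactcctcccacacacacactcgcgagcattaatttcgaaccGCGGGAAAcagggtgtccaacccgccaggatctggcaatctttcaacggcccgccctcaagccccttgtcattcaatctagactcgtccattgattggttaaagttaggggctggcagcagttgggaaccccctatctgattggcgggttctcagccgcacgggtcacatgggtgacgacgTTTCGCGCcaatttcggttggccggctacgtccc
The window held 2 matches, which start at positions 86 and 267 and do not overlap, and the window of the other Mcm7 start site held 0. Of 32851 promoter windows of 300 bases, 744 (2.26%) held at least 1 such match. A match of letters is a description of the sequence and shows no binding.

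The Mir17 cluster, named for its members from miR-17 to miR-92a and known as a target of MYC and E2F, lies on chromosome 14 at 115043684 to 115044496 (GRCm38, plus strand) in exon sequence of its host transcript Mir17hg. All 10 of its mature miRNAs that were tested had a positive log2 fold change, from 0.30 to 2.19, and 5 of them rose. miR-19a-3p stood at 30.2, 35.2 and 29.1 RPM with TRAMP and at 7.13, 3.97 and 7.88 without it, the largest log2 fold change of the cluster at 2.19 ± 0.28 (limma adjusted p = 0.00336). miR-19b-3p, which is also made from a copy on chromosome X, stood at 146, 176 and 95.4 against 46.6, 31.2 and 40.1 and rose by 1.77 ± 0.28 (limma adjusted p = 0.0068). Neither pair of groups overlapped, and library 15 was the lowest of the A537T-TRAMP libraries for both. miR-18a-5p, miR-20a-5p and miR-17-5p rose by 1.36 ± 0.25, 1.06 ± 0.25 and 0.90 ± 0.25 (limma adjusted p = 0.00952, 0.0278 and 0.0464).

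The members of the Mir17 cluster thus differed in size of change, and the most abundant one moved least among those above 10 RPM. miR-92a-3p, which is made from the X-linked copy as well, stood at 867, 1266 and 860.0 with TRAMP and at 764, 803 and 707 without it. The 2 groups did not overlap, but the log2 fold change of 0.37 ± 0.22 did not pass the test (limma adjusted p = 0.345). miR-17-5p passed in the 6 libraries but not without any 1 of them, with limma adjusted p of 0.0616 to 0.14, and miR-20a-5p lost its call without library 13, 14, 15 or 27, with limma adjusted p of up to 0.0993.

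The X-linked copy of this cluster, at 52741697 to 52742563 on the minus strand, held members with the same seeds and negative log2 fold changes. miR-106a-5p, miR-20b-5p and miR-363-3p, which are made from this locus and no other, had log2 fold changes of -0.39 ± 0.29, -0.66 ± 0.32 and -0.85 ± 0.36, and none passed the test (limma adjusted p = 0.431, 0.259 and 0.198). miR-363-3p, with the seed of miR-25-3p, stood at 18.1, 21.01 and 22.9 RPM with TRAMP and at 34.8, 66.8 and 23.3 without it, so that its groups were apart by a narrow margin. The difference between the X-linked and the other clusters was not tested.

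miR-15b-5p, of the cluster with Mir16-2 in an intron of Smc4, a gene of chromosome condensation, on chromosome 3 at 69009775 to 69009981 (plus strand), had the smallest p of all. It stood at 263, 345 and 254 RPM with TRAMP and at 71.1, 51.4 and 65.3 without it, a log2 fold change of 2.18 ± 0.23 (limma adjusted p = 0.00265). All 4 tested miRNAs of this cluster rose, with miR-16-5p at 1.00 ± 0.22, miR-16-2-3p at 1.06 ± 0.24 and miR-15b-3p at 0.94 ± 0.21 (limma adjusted p = 0.0237, 0.0243 and 0.0243). Both arms of Mir15b rose, the 5p arm by the larger amount. The calls of the last 3 were lost on leaving out single libraries, any 1 of 13, 14, 15, 25 and 27 for miR-16-5p and miR-15b-3p and any 1 of 14, 15, 25 and 27 for miR-16-2-3p, with limma adjusted p of up to 0.0737, 0.131 and 0.0973.

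miR-16-5p is also made from Mir16-1 on chromosome 14, in the host transcript Dleu2, and the 2 sources cannot be told apart in its count. The arm that marks Mir16-1, miR-16-1-3p, stood at 45.1, 88.1 and 50.5 with TRAMP and at 16.96, 18.1 and 16.9 without it and rose by 1.70 ± 0.28 (limma adjusted p = 0.00709). Its partner miR-15a-5p had a log2 fold change of 0.97 ± 0.30 with a limma adjusted p of 0.0757.

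The other miRNAs of the miR-15/16 seed came from Mir497 and Mir195a, on chromosome 11 at 70234730 to 70235121 (plus strand) in no other annotated gene. miR-195a-5p stood at 953, 1197 and 912 RPM with TRAMP and at 465, 374 and 354 without it, and rose by 1.36 ± 0.21 (limma adjusted p = 0.00557). miR-497a-5p stood at 332, 452 and 270.4 against 133, 135 and 95.5 and rose by 1.51 ± 0.26 (limma adjusted p = 0.00709), and miR-195a-3p rose by 1.19 ± 0.24 (limma adjusted p = 0.014), the last call being lost without library 14, 15 or 25 (limma adjusted p of up to 0.0838). No A537T-TRAMP library fell within the range of the A537T libraries for any of the 3. miR-322-5p, whose cluster on chromosome X is also known for the control of cyclins, carries the same seed and had a log2 fold change of 0.17 ± 0.29 (limma adjusted p = 0.734), and 0 of the 9 tested miRNAs of the cluster passed the test.

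**Figure D2:**
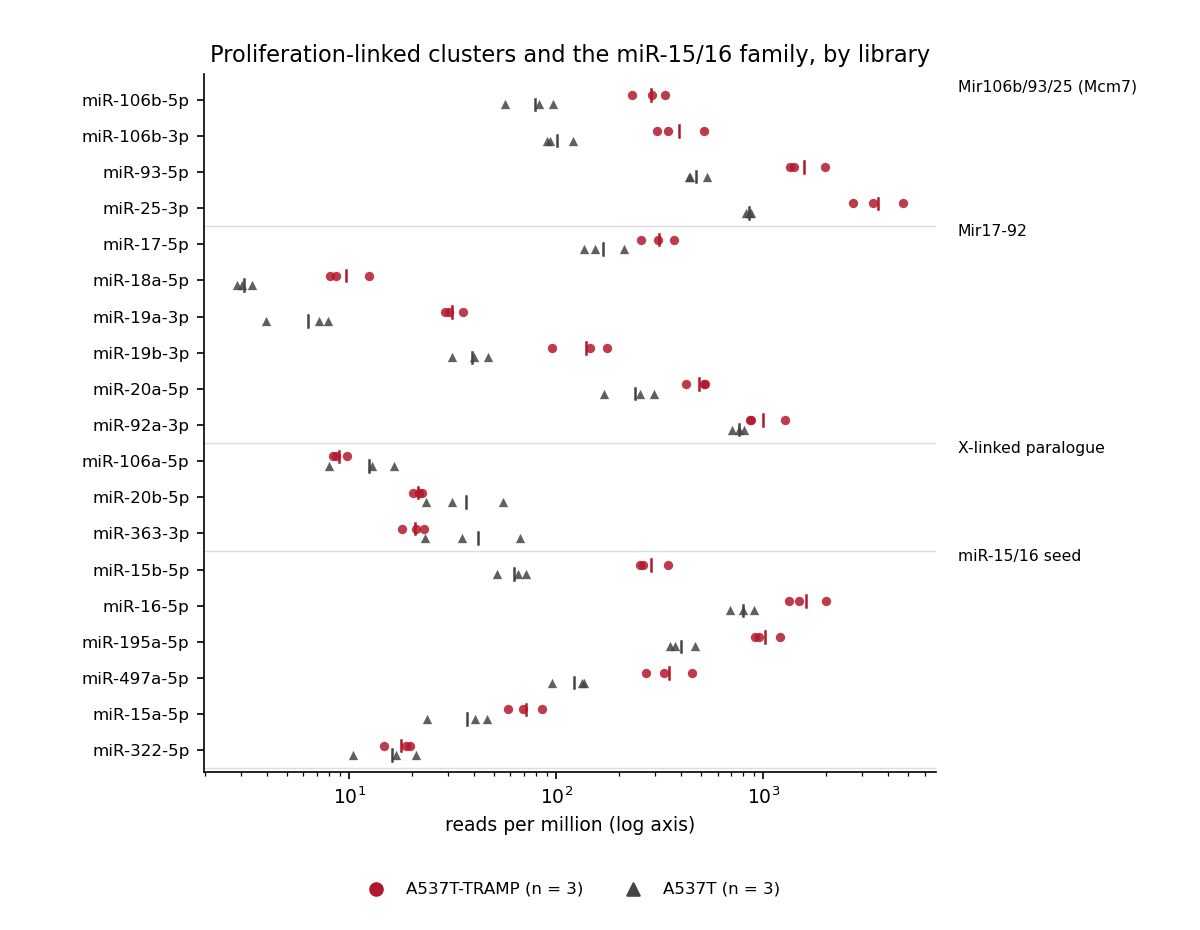
RPM on a log axis for the members of the 3 polycistrons and of the miR-15/16 seed family, with 1 red circle for each A537T-TRAMP library and 1 dark triangle for each A537T library (n = 3 each) and a short bar at each mean. The groups are apart for miR-25-3p (2691 to 4703 against 820.0 to 872) and miR-15b-5p (254 to 345 against 51.4 to 71.1), and overlap for miR-106a-5p and miR-322-5p.

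As a list of 25 miRNAs, the Mir17, Mir106b, X-linked and Mir15b clusters had 22 tested members, of which 14 rose and 0 fell, beside 8.89% of all miRNAs that rose, and their median log2 fold change was 1.06. The list was assembled with earlier results of these data known, so its count describes these clusters. Their share of all reads was 0.698%, 1.04% and 0.736% in libraries 13, 14 and 15 and 0.313%, 0.285% and 0.277% in libraries 25, 26 and 27, which gives p = 0.1 in an exact two-sided permutation test, the smallest that 3 against 3 libraries allow. The number of members that rose ran from 9 to 16 over the alternatives, 9 being the count without A537T-TRAMP library 14 or 15 and without A537T library 27, beside 10 without library 13 or 25.

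Other miRNAs known from cancer rose as single loci. miR-32-5p, from an intron of Tmem245 on chromosome 4 and known as an androgen-regulated miRNA, stood at 72.9, 68.4 and 61.2 RPM with TRAMP and at 26.7, 17.97 and 17.8 without it, a log2 fold change of 1.67 ± 0.24 (limma adjusted p = 0.00403). miR-31-5p stood at 843, 1136 and 790.4 with TRAMP and at 255, 484 and 177 without it, and rose by 1.70 ± 0.35 (limma adjusted p = 0.0175). The A537T libraries spread widely here, with library 26 the highest, and the call was lost without library 14, 15 or 25 (limma adjusted p of up to 0.0902). The other arm, miR-31-3p, did not follow it, with a log2 fold change of -0.13 ± 0.61 (limma adjusted p = 0.912) and its highest value, 146, in A537T library 26.

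miR-21a-5p, the best known miRNA of tumours, was the third most abundant miRNA in the mean of the 6 libraries. It stood at 113967, 146038 and 112818 RPM with TRAMP and at 69591, 104430.0 and 57461 without it. The groups did not overlap, and the log2 fold change of 0.72 ± 0.26 did not pass the test (limma adjusted p = 0.118), although it passed without A537T library 26 (limma adjusted p = 0.00907, the lowest of a range up to 0.333 over the alternatives). Its rare arm miR-21a-3p rose by 1.38 ± 0.37 (limma adjusted p = 0.0464), a call that was lost on leaving out any 1 of the libraries except 26. miR-148a-3p, the most abundant miRNA, stood at 199656, 194400.0 and 252369 with TRAMP and at 131646, 147458 and 169109 without it, with a log2 fold change of 0.53 ± 0.20 (limma adjusted p = 0.149).

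Of the 19 miRNAs listed for links to androgen signalling and prostate cancer, all were tested, 4 rose and 1 fell, with a median log2 fold change of -0.07. Over all 495 miRNAs tested, 8.89% rose and 3.23% fell. The rises were miR-21a-3p, miR-31-5p, miR-32-5p and miR-101a-3p, the last known for targeting Ezh2, at 0.85 ± 0.22 (limma adjusted p = 0.0398). The fall was that of miR-222-3p, which stood at 458, 401 and 415 with TRAMP and at 676, 810.0 and 652 without it, a log2 fold change of -0.74 ± 0.19 (limma adjusted p = 0.0398). Its neighbour miR-221-3p moved the same way without passing the test, at -0.65 ± 0.23 (limma adjusted p = 0.117). The list held 41.5% to 47.7% of reads with TRAMP and 30.7% to 36.03% without it (exact two-sided permutation p = 0.1), which is set mostly by miR-148a-3p and miR-21a-5p, of which neither passed its own test. The calls of miR-101a-3p and miR-222-3p were lost on leaving out any 1 of libraries 13, 14, 15, 25 and 27, with limma adjusted p of up to 0.132 and 0.154.

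The miR-34 and miR-449 miRNAs, known as targets of p53 and E2F, differed among themselves. Of 6 tested miRNAs 2 rose and 0 fell, beside 8.89% and 3.23% of all miRNAs tested, and the median log2 fold change was 0.58. miR-34c-5p stood at 95.6, 148 and 103 RPM with TRAMP and at 55.1, 57.4 and 55.1 without it and rose by 1.01 ± 0.23 (limma adjusted p = 0.0243). miR-449a-5p, from an intron of Cdc20b and known as an E2F target, stood at 10.9, 9.13 and 6.37 against 2.33, 0.433 and 2.05 and rose by 1.98 ± 0.36 (limma adjusted p = 0.0104). miR-34a-5p, the form most used as a readout of p53, stood at 108, 161 and 74.9 with TRAMP and at 214.4, 345 and 159.9 without it. Its log2 fold change of -1.05 ± 0.36 did not pass the test (limma adjusted p = 0.11), and its groups overlapped by a narrow margin. The call of miR-34c-5p was lost without library 15, 25 or 27 (limma adjusted p of up to 0.114) and that of miR-449a-5p without library 14 (limma adjusted p = 0.0571).

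Among the falls, miR-365-3p changed most of those above 10 RPM. It is made from loci on chromosomes 11 and 16 and stood at 64.2, 51.9 and 48.0 RPM with TRAMP and at 236, 359.5 and 154 without it, a log2 fold change of -2.10 ± 0.31 (limma adjusted p = 0.005). The groups were far apart although the A537T libraries varied by more than the A537T-TRAMP libraries. Its less abundant arms miR-365-1-5p and miR-365-2-5p, which tell the loci apart, had log2 fold changes of -0.52 ± 0.57 and -0.25 ± 0.24 at means of 5.97 and 1.69 RPM, and neither passed the test (limma adjusted p = 0.593 and 0.542). Of the miRNAs under 10 RPM, miR-672-5p fell by 2.12 on the log2 scale (SE 0.29, limma adjusted p = 0.00389) and both arms of Mir193a fell, by 0.90 ± 0.24 for miR-193a-5p and 1.01 ± 0.28 for miR-193a-3p (limma adjusted p = 0.0417 and 0.0475). The calls of the Mir193a arms were lost on leaving out any 1 of 5 libraries, with limma adjusted p of up to 0.173.

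Of the 4 tested miRNAs listed for basal epithelium 1 rose and 2 fell, beside 8.89% and 3.23% of all miRNAs tested. The share of the list was 0.226% to 0.312% of reads with TRAMP and 0.399% to 0.502% without it (exact two-sided permutation p = 0.1). miR-205-5p, a miRNA of basal cells, stood at 1917, 1159 and 1102 RPM with TRAMP and at 4061, 4459 and 3388 without it, a log2 fold change of -1.55 ± 0.26 (limma adjusted p = 0.00709). All 3 A537T-TRAMP libraries lay below the A537T libraries. Its other arm, miR-205-3p, fell by 1.53 ± 0.29 (limma adjusted p = 0.0122), a call that was lost without library 14 or 15 (limma adjusted p of up to 0.0613). miR-203-3p, a miRNA of stratifying epithelium, moved the other way, from 617, 541 and 596 without TRAMP to 1197, 1273 and 1149.7 with it, a rise of 1.04 ± 0.18 (limma adjusted p = 0.00709). Mir205 lies in exon sequence of a noncoding transcript on chromosome 1 at 193507463 to 193507530 (minus strand), and Mir203 lies on chromosome 12 at 112130880 to 112130955 (plus strand) in no other annotated gene.

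The miR-200 family, which marks and maintains luminal and other epithelium, had 9 tested miRNAs, of which 0 passed the test. Its share of reads was 7.15% to 9.13% with TRAMP and 5.38% to 9.4% without it (exact two-sided permutation p = 0.6). miR-200c-3p stood at 11679, 16782 and 11246 with TRAMP and at 14162, 19282 and 11734 without it. Epithelial miRNAs were thus abundant in all 6 libraries, as the labelled tissue would have. Of the 6 tested miRNAs of the sensory and epithelial Mir183 cluster 0 passed as well.

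The smooth muscle miRNAs miR-143 and miR-145a, which are made from 1 cluster, had negative log2 fold changes in all 5 tested forms. Of the 5, 1 passed the test, beside 3.23% of all miRNAs tested that fell. miR-145a-5p stood at 6373, 3013 and 3824 RPM with TRAMP and at 11560.2, 7328 and 12096 without it, a log2 fold change of -1.27 ± 0.32 (limma adjusted p = 0.0361). miR-143-3p, the second most abundant miRNA, stood at 179312, 81034 and 128863 with TRAMP and at 251509, 153125 and 251627 without it, with a log2 fold change of -0.79 ± 0.33 (limma adjusted p = 0.183). Libraries 13 and 26 overlapped here, whereas for miR-145a-5p the groups were apart. The share of the list was 8.54% to 18.8% of reads with TRAMP and 16.3% to 26.7% without it (exact two-sided permutation p = 0.2). In these bulk samples, fewer cells of a type and less of a miRNA per cell cannot be told apart. The miR-145a-5p call was lost without library 14, 15, 25 or 27 (limma adjusted p of up to 0.14).

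Of the skeletal muscle miRNAs, miR-133a-3p stood at 457, 274 and 227 RPM with TRAMP and at 889, 787 and 743 without it and fell by 1.39 ± 0.27 on the log2 scale (limma adjusted p = 0.0137). miR-133b-3p fell by 1.41 ± 0.32 (limma adjusted p = 0.0243). The other muscle miRNAs did not pass the test. miR-1a-3p, which is made from the same transcripts as miR-133a, stood at 4119, 2108 and 2782 with TRAMP and at 4478, 2682 and 4558 without it (log2 fold change -0.39 ± 0.31, limma adjusted p = 0.463). miR-206-3p, the form most particular to skeletal muscle, stood at 8.999, 32.8 and 5.74 against 6.58, 2.67 and 6.16 (log2 fold change 1.17 ± 0.57, limma adjusted p = 0.26), with library 14 the highest. In all, 2 of 5 tested members fell and 0 rose, beside 3.23% and 8.89% of all miRNAs tested. The share of the list was 0.244% to 0.463% with TRAMP and 0.356% to 0.546% without it. The calls of both miR-133 forms were lost without library 14, 15 or 25, and the limma adjusted p over all alternatives reached 0.228 for miR-133a-3p and 0.249 for miR-133b-3p.

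Markers of white blood cells did not move together. miR-142a-3p, a miRNA of blood-forming cells, stood at 235, 306 and 219 RPM with TRAMP and at 73.3, 71.3 and 66.2 without it, a rise of 1.82 ± 0.21 (limma adjusted p = 0.00265). Its partner arm miR-142a-5p stood at 492, 717 and 509 against 244, 318 and 193 and rose by 1.19 ± 0.25 (limma adjusted p = 0.0198), a call that was lost without library 14, 15, 25 or 27 (limma adjusted p of up to 0.0814). Mir142 lies on chromosome 11 at 87756864 to 87756927 (plus strand) in an intron of Mir142hg, with Mir142b annotated on the opposite strand. Whether reads were counted by strand is not given in the sources used here. miR-150-5p of lymphocytes, at 107, 219 and 120.1 with TRAMP and 166, 153 and 103 without it, and miR-223-3p of myeloid cells, at 29.3, 46.0 and 27.5 against 34.02, 31.8 and 32.3, had log2 fold changes of 0.03 ± 0.32 and 0.03 ± 0.25 (limma adjusted p = 0.951 for both). miR-146a-5p, which NF-κB induces, was highest in A537T library 26, at 10284, and ran from 1966 to 7242 in the other 5 libraries. Of the 12 tested members 2 rose and 0 fell, beside 8.89% and 3.23% of all miRNAs tested. The share of the list overlapped between the groups (0.531% to 1.02% with TRAMP, 0.305% to 1.21% without it, exact two-sided permutation p = 0.7). The part of white blood cells in the rise of miR-142a was not tested.

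**Figure D3:**
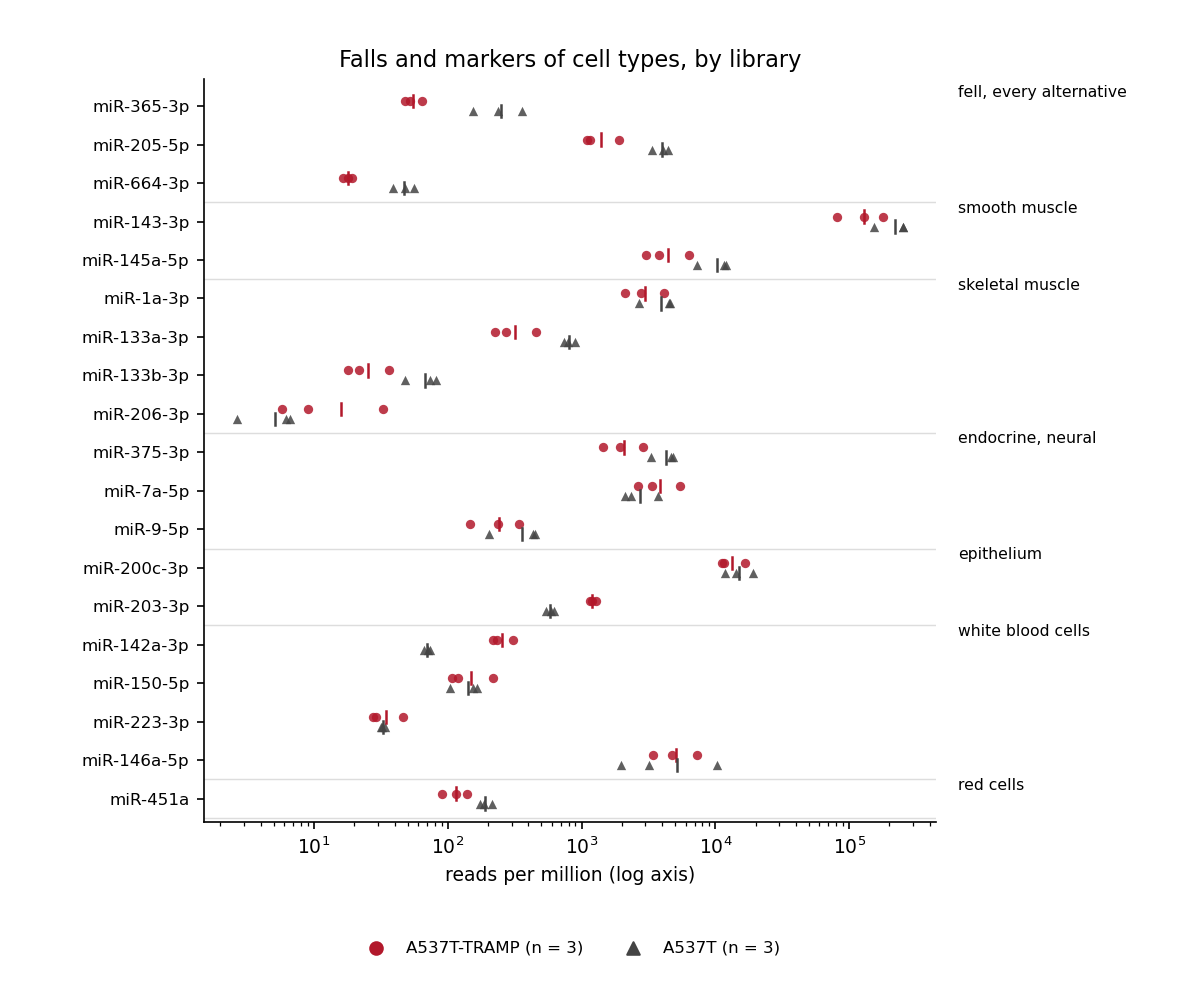
RPM on a log axis for falls and for markers of cell types, with 1 red circle for each A537T-TRAMP library and 1 dark triangle for each A537T library (n = 3 each) and a short bar at each mean. miR-205-5p (1102 to 1917 against 3388 to 4459) and miR-142a-3p (219 to 306 against 66.2 to 73.3) are apart, while miR-150-5p, miR-223-3p and miR-146a-5p overlap.

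The other cell type lists gave no call. For fibroblasts 5 miRNAs, those of Mir199 and Mir214, were tested, for vessels 2 arms of miR-126a, and for red cells and platelets 5, and 0 of each passed the test. miR-451a of red cells stood at 91.1, 140.0 and 114 RPM with TRAMP and at 185, 214.4 and 174 without it (log2 fold change -0.74 ± 0.23, limma adjusted p = 0.0757). The liver marker miR-122-5p was at 1.04 to 3.08 RPM in the 6 libraries.

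Neuroendocrine miRNAs are of interest because TRAMP tumours can take on neuroendocrine features. miR-375-3p, a miRNA of endocrine and some epithelial cells, was lower with TRAMP, at 2855, 1452 and 1948 RPM against 4826, 3281 and 4687, a log2 fold change of -1.07 ± 0.28 (limma adjusted p = 0.0427). The groups did not overlap, but the call passed in only 6 of 16 alternatives, with limma adjusted p of 0.0159 to 0.393, and was lost without library 14, 15, 25 or 27. miR-7a-5p and miR-9-5p, of endocrine and neural cells, had log2 fold changes of 0.47 ± 0.32 and -0.58 ± 0.39 (limma adjusted p = 0.404 for both). Both arms of miR-132, an activity-regulated miRNA, rose by 1.01 ± 0.22 (5p) and 1.11 ± 0.26 (3p) with limma adjusted p of 0.0203 and 0.0243. Each call was lost without any 1 of 4 libraries, 13, 15, 25 and 27 for the 5p arm and 13, 14, 25 and 27 for the 3p arm, with limma adjusted p of up to 0.104. Of 15 tested members of the list 2 rose and 1 fell, beside 8.89% and 3.23% of all miRNAs tested, and the median log2 fold change was -0.01.

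Large clusters that are imprinted or particular to rodents gave no call. In the imprinted Dlk1-Dio3 cluster 0 of 47 tested miRNAs passed, with a median log2 fold change of -0.14, and in the Sfmbt2 cluster 0 of 14, with a median of 0.07. Of the let-7 family, which restrains growth, 1 of 21 tested members rose, the merged let-7a and let-7c 3p arms at 0.95 ± 0.18 (limma adjusted p = 0.0133), which lost its call without library 15, 25 or 27 (limma adjusted p of up to 0.0881), and the abundant 5p arms such as let-7f-5p had log2 fold changes near 0 (-0.23 ± 0.23, limma adjusted p = 0.559). Of the Hox cluster miRNAs 1 of 7 rose, and the share of all miRNAs tested that rose, to be set beside both counts, was 8.89%. The Hox member that rose was miR-196a-5p, which stood at 267, 429 and 275 with TRAMP and at 139, 121 and 132 without it (1.27 ± 0.24, limma adjusted p = 0.0113). miR-196a-1-3p from Mir196a-1 on chromosome 11 rose with it, by 1.57 ± 0.27 (limma adjusted p = 0.00709). miR-10a-5p and miR-10b-5p, which also lie in Hox clusters, had log2 fold changes of -0.60 ± 0.42 and -0.96 ± 0.78 with wide errors, as library 26 held 2716 RPM of miR-10b-5p and libraries 25 and 27 held 17999 and 22357. Of the 6 miRNAs that the study's text names from these mice, miR-10a-5p, miR-122-5p, miR-383-5p, miR-338-3p, miR-669c-5p and miR-676-5p, 0 passed the test for TRAMP in A537T. The study chose these 6 on libraries of this series, from comparisons of Elac2 mutant mice with their controls. It did not name them for TRAMP against no TRAMP, so the count of 0 does not bear on those comparisons.

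**Figure D4:**
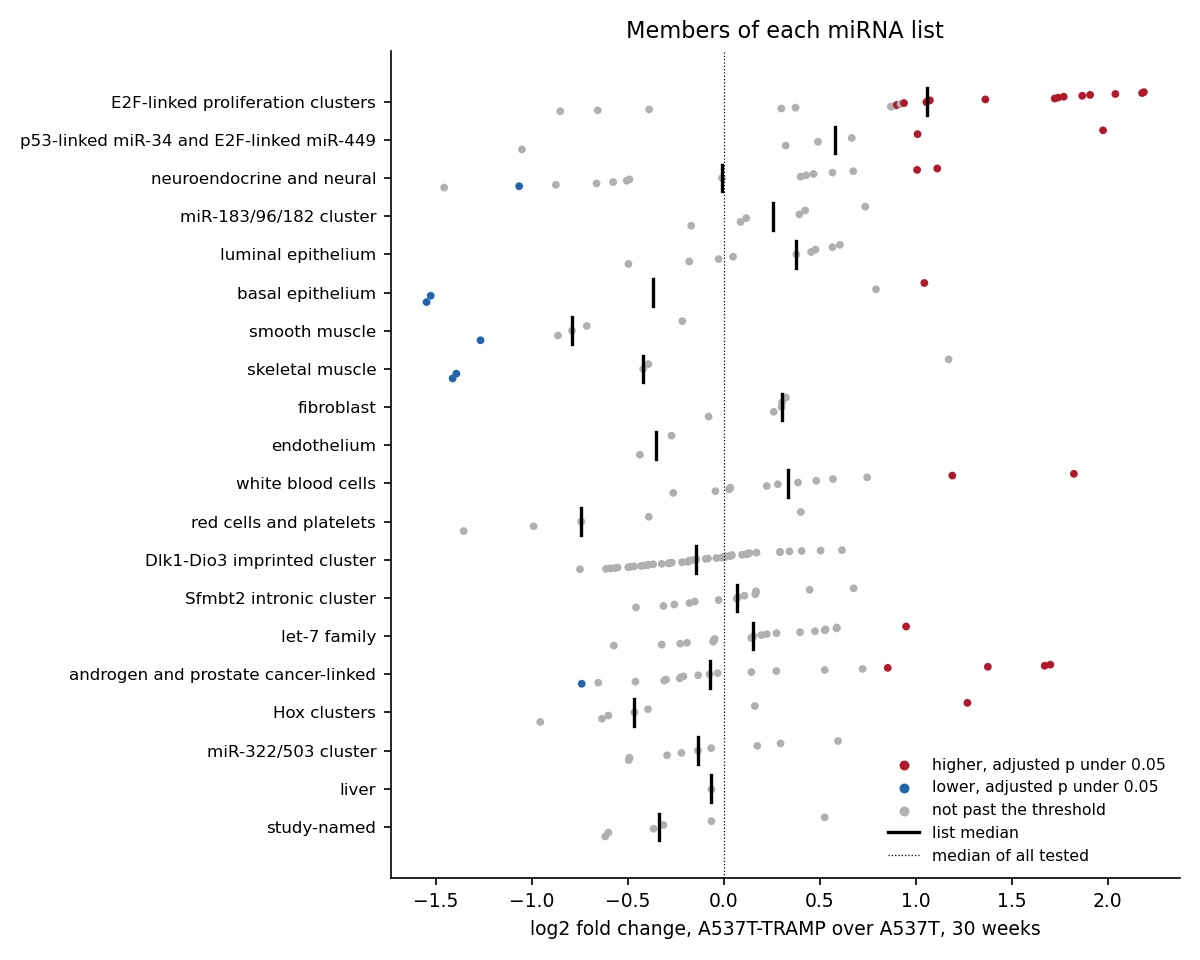
Each point is a tested miRNA of 1 of 20 lists, placed by its log2 fold change of A537T-TRAMP over A537T at 30 weeks, with red and blue for miRNAs that rose and fell (adjusted p under 0.05), a black bar at the list median and a dotted line at the median of all 495 miRNAs tested. The E2F-linked clusters have 14 of 22 points in red and a median of 1.06, while the Dlk1-Dio3 cluster has 47 grey points around a median of -0.14.

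The arms of a precursor can be compared with each other. For 117 precursors both arms were tested and came from that locus alone, and for 79 of these the log2 fold changes had the same sign. Of the 20 precursors with a called arm, 19 had arms of the same sign, and in all 10 with both arms called the direction was shared. The exception was Mir31. Pearson's r between the arms was 0.742 over the 117 precursors, which share the 6 libraries and are not independent.

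Libraries of the same group did not all resemble each other. A537T library 26 stood apart, with 15 of 289 miRNAs above 10 RPM more than 2-fold below both other A537T libraries and 8 more than 2-fold above both. Library 14 had 6 above and 3 below among the A537T-TRAMP libraries, and no library had more than 4 in either direction besides these. All 60 called miRNAs had groups that did not overlap, whereas 30.9% of all 495 tested did not. Without library 26, 61 miRNAs rose and 31 fell, and 43 of the 44 rises and 15 of the 16 falls were among them. The fewest rises, 20 with 5 falls, were found without library 25 and the fewest falls, 4 with 22 rises, without library 15. Leaving out library 14 gave 24 and 7, and library 27 gave 22 and 8. In total 22 of the 60 calls, 18 rises and 4 falls, passed on leaving out each of the 6 libraries in turn, and 21, 18 rises and 3 falls, passed in every alternative in which they were tested. These 3 falls were miR-365-3p, miR-205-5p and miR-664-3p.

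The next question was how the difference between prostates with and without TRAMP compared with that in the other lines at the same age. The effects in WT and KO rest on other libraries, so no library enters 2 effects. In their own fits of 6 libraries each, 15.5% of 510 miRNAs rose and 13.3% fell with TRAMP in WT, and 14.1% of 516 rose and 3.49% fell in KO. Of the 44 miRNAs that rose in A537T, 43 were tested in WT, 43 had a positive log2 fold change there and 39 rose. In KO 43 were tested, 43 were positive and 33 rose. Of the 16 that fell in A537T, all were negative and 11 fell in WT, and 14 were negative and 8 fell in KO. Over all miRNAs tested in both fits, 209 of 485 were positive and 276 negative in WT. For KO, 306 of 483 were positive and 177 negative.

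The difference between lines was tested directly as an interaction over 12 libraries. Between A537T and WT 0 of 513 miRNAs passed (limma, 0% called, 20 at an unadjusted p under 0.05). edgeR gave 0 and DESeq2 gave 3, all lower in A537T. The smallest p was that of miR-142a-3p, whose rise of 1.82 ± 0.21 in A537T stood beside 2.81 ± 0.22 in WT and 2.50 ± 0.31 in KO. The difference from WT was -0.99 ± 0.29 on the log2 scale (limma adjusted p = 0.73). With TMM scaling it was -1.18 (limma adjusted p = 0.0391) and with median-of-ratios scaling -1.16 (0.0273), and it was the 1 miRNA that passed under either, within a range of 6.24e-08 to 0.94 over the alternatives. The median difference over all miRNAs was 0.14, and -0.04 with TMM scaling, so differences are read relative to it. A failure to pass does not show that the lines respond alike, and the count moved on leaving out single libraries. Without WT library 19 there were 32 miRNAs with a higher effect in A537T. Without WT-TRAMP library 11 there were 3 with a lower effect.

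Between A537T and KO 0 of 513 miRNAs passed (limma, 0% called, 79 at an unadjusted p under 0.05), edgeR gave 0 and DESeq2 gave 8, all lower in A537T. The median difference was -0.22 over all miRNAs, -0.04 with TMM scaling and 0.03 with median-of-ratios scaling. The smallest p was that of miR-329-5p of the Dlk1-Dio3 cluster, with a difference of -1.34 ± 0.34 (limma adjusted p = 0.309), and without KO-TRAMP library 16 there were 86 miRNAs with a lower and 2 with a higher effect in A537T.

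Of the miRNAs with a large change, miR-25-3p, miR-15b-5p, miR-365-3p and miR-205-5p were called in all 3 lines, in the same direction. miR-25-3p rose by 2.04 ± 0.23 in A537T, 2.36 ± 0.17 in WT and 1.85 ± 0.23 in KO, and miR-15b-5p by 2.18 ± 0.23, 2.53 ± 0.12 and 2.33 ± 0.28. For miR-25-3p the interaction was -0.32 ± 0.29 with WT and 0.19 ± 0.33 with KO (limma adjusted p = 0.73 and 0.825). miR-365-3p fell by 2.10 ± 0.31, 2.54 ± 0.16 and 1.41 ± 0.30, and miR-205-5p by 1.55 ± 0.26, 1.78 ± 0.23 and 1.30 ± 0.30. miR-31-5p rose by 1.70 ± 0.35 in A537T and 0.94 ± 0.26 in WT, and had a log2 fold change of 0.87 ± 0.32 in KO that did not pass (limma adjusted p = 0.101).

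The last question was how the TRAMP effect in A537T at 30 weeks compared with that at 10 weeks. At 10 weeks, in a fit of libraries 4, 5 and 6 with TRAMP against 34, 35 and 36 without it, 9.38% of 512 miRNAs rose and 23.6% fell. Of the 44 rises at 30 weeks 43 were tested at 10 weeks, and 40 were positive and 24 rose there. Of the 16 falls, 15 were negative and 9 fell. Over all 481 miRNAs tested at both ages, 186 were positive and 295 negative at 10 weeks. Library 35 was the shallowest of the series, at 655455 reads, where 1 read was worth 1.53 RPM.

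From the Mir106b and Mir15b clusters, miR-25-3p and miR-15b-5p rose at both ages. miR-25-3p rose by 2.26 ± 0.21 at 10 weeks and miR-15b-5p by 2.07 ± 0.32, and miR-365-3p fell by 2.09 ± 0.28. miR-31-5p, miR-196a-5p and miR-34c-5p rose at 30 weeks and did not pass the test at 10 weeks, with log2 fold changes there of 0.02 ± 0.32, 0.10 ± 0.22 and -0.85 ± 0.30. For miR-31-5p the age difference was 1.69 ± 0.51 (limma adjusted p = 0.0587). The age difference passed the test for miR-34c-5p (1.86 ± 0.39, limma adjusted p = 0.0255) and miR-196a-5p (1.16 ± 0.32, limma adjusted p = 0.0442), within ranges of 0.00296 to 0.0624 and 0.0387 to 0.258 over the alternatives.

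In all, 36 miRNAs (7.16% of those tested) differed between the ages, of which 35 (6.96%) had a higher and 1 (0.199%) a lower effect of TRAMP at 30 than at 10 weeks. The median difference over all miRNAs was 0.26, and -0.14 with TMM scaling, under which 6 miRNAs had a higher and 2 a lower effect. The skeletal muscle miRNAs led, with differences of 6.08 ± 1.04 for miR-206-3p, 4.04 ± 0.78 for miR-133a-5p and 3.69 ± 0.70 for miR-1a-3p (limma adjusted p = 0.0158 for each). At 10 weeks miR-206-3p stood at 16.7, 21.3 and 163 RPM in A537T-TRAMP libraries 4, 5 and 6 and at 1766, 1268 and 776 in A537T libraries 34, 35 and 36, beside 2.67 to 32.8 in the 6 libraries of 30 weeks. miR-1a-3p likewise stood at 1965 to 7788 with TRAMP and at 30691 to 111756 without it at 10 weeks. The A537T libraries of 10 weeks thus held far more skeletal muscle miRNA than any of the 30-week libraries in this comparison, and the part of this in the age difference of other miRNAs was not tested. The number with a higher effect at 30 weeks moved both ways on leaving out single libraries. Of the A537T-TRAMP libraries, it was 0 without 5, 3 without 14, 11 without 13, 20 without 4, 40 without 15 and 52 without 6. Of the A537T libraries, it was 3 without 35, 4 without 25, 5 without 27, 19 without 36, 25 without 26 and 26 without 34.

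**Figure D5:**
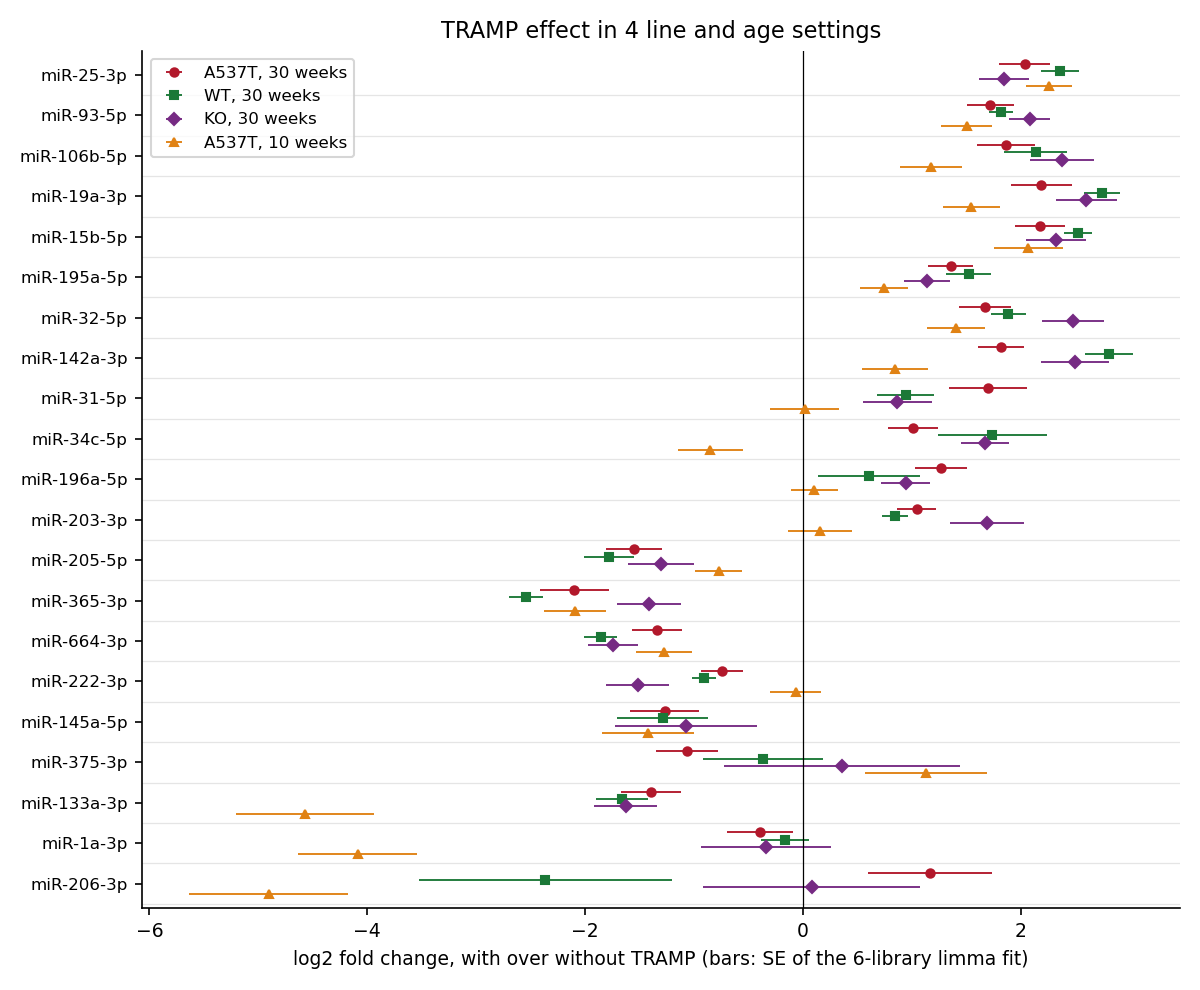
Log2 fold change of libraries with over libraries without TRAMP for 21 miRNAs, in A537T, WT and KO at 30 weeks and in A537T at 10 weeks, with bars for the SE of each limma fit of 6 libraries (n = 3 each). miR-25-3p lies between 1.85 and 2.36 in all 4 settings, while miR-206-3p runs from -4.91 in A537T at 10 weeks to 1.17 in A537T at 30 weeks.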

How the data were processed

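Ventral and lateral prostate RNA was prepared with the Illumina TruSeq Small RNA kit and sequenced on a NovaSeq. The authors merged and trimmed paired reads with BBMerge, counted miRNAs with mirDeep2 v0.1.3 against GRCm38 and miRBase 22.1, and summed miRNAs of identical sequence. The deposited values are a signal, the reads of each miRNA divided by a DESeq2 size factor within the 6 libraries of 1 table. Tables of the authors' own comparisons (shrunken log2 fold changes and s-values) and lists of merged names were not used.

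Because A537T-TRAMP and A537T stand in tables that were normalised separately, each column was divided by its sum and scaled to reads per 1000000 (RPM). Columns carry a library number but no group, so the group of every library rests on the name of its table, with columns in both the KO and the mutant table taken as controls, and no measured value checks it. The recovered reads of the controls were identical in 12 of 12 such columns, and 0 columns were left without a group. Whole reads were recovered for 100% of the values within a tolerance of 0.01 read in the libraries used here. With 9090165 or more reads in each of the 6 libraries, 95% Wilson intervals of the read shares were at most 0.0648 percentage points wide and cover counting error only.

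The test was limma 3.58.1 with a variance trend (R 4.3.3) on log2(RPM + 1), for miRNAs with a mean of at least 1 RPM, two-sided, with Benjamini-Hochberg adjustment and a threshold of 0.05. Differences between effects were interaction contrasts over 12 libraries. Read shares were compared by exact permutation in scipy 1.17.1. Alternatives were pseudocounts of 0.1 and 10, no filter, a mean of at least 10, TMM and median-of-ratios scaling, no variance trend, leaving out each library, edgeR 4.0.16 and DESeq2 1.42.0 on recovered reads, and a fit of all 36 libraries. edgeR on the recovered reads called 55 miRNAs higher and 18 lower in A537T-TRAMP against A537T. On simulated reads with known 4-fold changes, limma recovered 98.4% of 188 changed miRNAs among 482 tested for this comparison. For the interactions it recovered 69.8% of 192 among 504 (WT), 62.4% of 197 among 513 (KO) and 73.7% of 194 among 500 (10 weeks). False calls numbered 4, 3, 4 and 7 in this order. Changes of less than 4-fold, which most of the called miRNAs showed, were not simulated.

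miRNAs were chosen for naming by rule. They were up to 12 of the largest rises and falls past the threshold with a mean of at least 10 RPM and no overlap of groups. Only 10 falls were eligible. Added to these were the 5 most abundant, up to 4 of each list by mean and the 6 that the study's text names. The other arms of the first set were added, and up to 5 of each interaction past the threshold, or else the 1 with the smallest p. Of those chosen, miR-187-3p and miR-3102-3p are not described above. Others named in the text were chosen after their values were seen. The members and lists were chosen with earlier results of these data known. Annotation was taken from GENCODE vM21, and sequences from RefSeq.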

Additional observations from a re-analysis of the deposited data

Results flagged for a closer look

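Results were marked for a closer look where the effect of TRAMP in A537T at 30 weeks differed from that in another line or age by the test of the difference itself. No miRNA did so against WT or KO in the limma fit. Against A537T at 10 weeks 35 miRNAs had a higher and 1 a lower effect at 30 weeks. Those that are named here or that changed at 30 weeks are given with their difference in log2 fold change, 30 minus 10 weeks. Muscle-enriched miRNAs were the largest, miR-206-3p at 6.08, miR-133a-5p at 4.04, miR-1a-3p at 3.69 and miR-133a-3p at 3.17. miR-378a-5p, from a metabolic gene, differed by 1.95 and miR-653-5p by 2.29. The p53-linked miR-34c-5p differed by 1.86 and miR-34b-3p by 2.01. The fibroblast miRNAs miR-199b-5p and miR-199a-5p differed by 2.03 and 1.08. miR-411-5p and miR-379-5p of the imprinted Dlk1-Dio3 cluster differed by 1.30 and 1.26, the merged miR-669ao-3p of the Sfmbt2 cluster by 1.52, miR-132-5p by 1.29 and miR-196a-5p by 1.16. miR-672-5p was the 1 with a lower effect at 30 weeks, at -2.04. The median difference over all miRNAs tested was 0.26. Skeletal muscle miRNAs were abundant in the A537T libraries of 10 weeks, and their part in these differences was not tested.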

How the results depend on the processing

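For A537T-TRAMP against A537T at 30 weeks (44 higher, 16 lower), the count of rises was within 1.5 times the main count in every alternative except on leaving out libraries, where it ran from 20 (without 25) to 61 (without 26). The count of falls was 10 without a filter, 28 with DESeq2 and 4 to 31 on leaving out libraries, and no called miRNA changed sign under any alternative. For 128 miRNAs named or called, 1786 of 2015 values under alternatives kept their side of the threshold, 206 calls were lost and 23 gained, and 19 of 68 miRNAs without a call changed sign somewhere. Against WT (0 and 0), rises were 0 to 32 and falls 0 to 3 on leaving out libraries, falls were 1 with TMM and 1 with median-of-ratios scaling, and 3 with DESeq2, an alternative chosen after seeing the data. Against KO (0 and 0), leaving out libraries gave 0 to 2 higher and 0 to 86 lower, and DESeq2 gave 8 lower. For 30 against 10 weeks (35 and 1), higher effects numbered 6 with TMM, 8 with median-of-ratios scaling, 16 with edgeR, 23 with DESeq2 and 0 to 52 on leaving out libraries. Lower effects numbered 0 with a pseudocount of 0.1, 0 with a mean of at least 10, 2 with TMM, 2 with median-of-ratios scaling, 3 with edgeR, 10 with DESeq2 and 0 to 2 on leaving out libraries. The cause was not tested, apart from the fewer miRNAs tested or libraries used by construction. With 3 libraries a group, small changes were not detectable. No paired analysis was possible because the columns carry no replicate number.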

Other observations

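Several rare miRNAs under 10 RPM also changed, among them miR-147-3p, known as an induced miRNA of activated macrophages, which stood at 6.66, 20.2 and 11.2 RPM with TRAMP and at 1.55, 2.16 and 0.89 without it (log2 fold change 2.34 ± 0.39, limma adjusted p = 0.00709). It was chosen after its values were seen. miR-155-5p, another miRNA of activated white blood cells, did not pass the test, at 0.48 ± 0.31 (limma adjusted p = 0.381).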
